A study of Mus musculus with 27 samples.

Results

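Macrophages sorted from the dura mater, the outer membrane around the brain, were compared between mice given T cells that lacked interleukin-17A and F (IL-17A/F) and mice given total T cells. The libraries were chosen by the column names of the deposited count table, which gave 2 libraries for IL-17A/F-deficient T cells and 5 for total T cells, 7 of the 27 in the series. All hosts were Rag1 ko B6 mice aged 16 to 19 weeks, and both groups were taken 6.5 weeks after the transfer. The titles call the donor cells IL17A and the condition field calls them IL-17AF ko, and the second name is used here. Both IL-17A/F-deficient libraries (F1, F2) are female, and the total T-cell libraries are 4 female (F1 to F4) and 1 male (M1). For reference, 2 female libraries each came from hosts given T-bet ko or IFN-gamma ko T cells, and 6 (4 female, 2 male) came from Rag1 ko mice without T cells. The other libraries, 7 with IL-6Ra and IL-21R ko T cells and 3 with IL-22 ko T cells, entered the fit that estimates the spread. Rag1-deficient mice make no T or B cells but keep innate lymphoid cells and natural killer cells, which can make these cytokines, so only the transferred T cells lacked them. Which markers the sort used is not stated in the labels. Nor do they tie each library to an animal of its own, and the spread behind every p-value may thus be technical.

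IL-17A and IL-17F are made mainly by Th17 and gamma-delta T cells and bind a receptor built of Il17ra and Il17rc, which signals through the adaptor Act1 (Traf3ip2) and Traf6 to NF-kB and to the co-activator IkB-zeta (Nfkbiz). Fibroblasts and epithelial cells are the best-known responders and answer with neutrophil chemokines and Lcn2. IFN-gamma, the main product of Th1 cells, which need T-bet, acts on macrophages and raises guanylate-binding proteins, chemokines such as Cxcl9 and antigen presentation. The dura holds resident border macrophages, known for Mrc1, Cd163 and Lyve1, and cells that arise from Ccr2-positive monocytes.

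The IL-17A/F-deficient libraries are of another type than the total T-cell libraries. Ribosomal protein genes summed to between 8780 and 9199 CPM (counts scaled to a common library total) in the IL-17A/F-deficient libraries and to between 15023 and 33624 CPM in the total T-cell libraries. Along this sum the 27 libraries fall into 3 levels, low (under 10400), middle, and high (over 21150), with boundaries set after the values were seen. Both IL-17A/F-deficient and all 4 T-bet- or IFN-gamma-deficient libraries are low, total T-cell F3 and F4 are middle, and F1, F2 and M1 are high. Fibroblast markers, as a mean log2 CPM, lay between 6.66 and 7.17 with IL-17A/F-deficient T cells, between 4.27 and 4.77 with total T cells, between 4.96 and 6.12 without T cells, and between 7.22 and 7.44 in the T-bet- and IFN-gamma-deficient groups. The summed CPM of the 19 fibroblast markers ran from 5230 to 7890 against 1280 to 1740 with total T cells, and no marker was at 0 in all 7 libraries. Library type, fibroblast RNA and the T cells' genotype cannot be told apart within these 7 libraries. Stromal genes are therefore given apart, and the main lists, and the calls that change, are also given against the high or the middle total T-cell libraries alone.

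**Figure D1:**
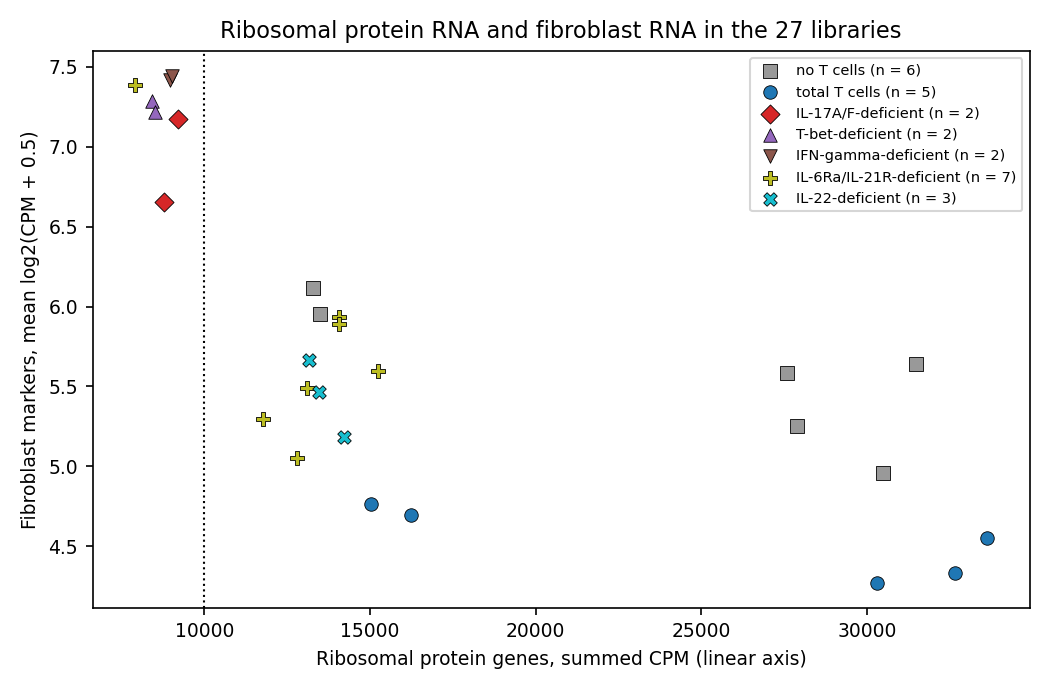
Summed CPM of ribosomal protein genes (x) and mean log2(CPM + 0.5) of the fibroblast markers (y) in each of the 27 libraries, by group, with a dotted line at 10000 CPM. The 2 IL-17A/F-deficient libraries lie at the upper left with the T-bet- and IFN-gamma-deficient ones, and the 5 total T-cell libraries lie lowest on the fibroblast scale.

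The sorted cells carried macrophage genes in every library. Csf1r, the receptor for the macrophage growth factor CSF1, was at 5665 and 4941 CPM with IL-17A/F-deficient and at 2671 to 4242 CPM with total T cells. Of 16 pan-macrophage genes 3, with Csf1r, were higher and 4, with Tyrobp, were lower by the test below (median log2 fold change 0.19). Of all tested genes 13.5% were higher and 11.6% lower. The mean log2 CPM of the 16 genes was 10.5 with IL-17A/F-deficient and 10.4 with total T cells. Il17a had 16 counts in total T-cell library F1 and 0 in the other 6 libraries, and Il17f and Il22 had 0 counts in all 7, so these macrophage libraries cannot show the donor knockout. Ifng had 61 counts in F1 and 7 in M1 of the total T-cell group and 0 elsewhere. The 14 T-cell markers summed to 218 to 230 CPM with IL-17A/F-deficient and 48.5 to 148 CPM with total T cells, yet Cd3e, the defining gene, had at most 5 and 14 counts. Cd4, which mouse macrophages can also express, had 3067 and 1628 counts in the IL-17A/F-deficient and 295 to 1336 in the total T-cell libraries.

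Against all 5 total T-cell libraries, 3170 of 12661 tested genes, 25.0%, passed an adjusted p of 0.05 (edgeR quasi-likelihood test, Benjamini-Hochberg adjustment over all genes). Of these, 1706 (13.5% of those tested) were higher and 1464 (11.6%) were lower with IL-17A/F-deficient T cells. These shares are the background for the counts below. Ranges of CPM did not overlap for 5207 genes, 41.1%. Genes that are named below for their list, or as the highest or lowest, were picked from these. For them a lack of overlap was fixed by the choice. Without IL-17A/F-deficient library F1 the test called 993 genes, and without F2 it called 1327. Against the 3 high total T-cell libraries alone 3734 genes (29.4%) were called, and against the 2 middle ones 1060 (8.40%), of which 612 (4.85%) were higher and 448 (3.55%) lower. A set of 952 genes (7.52%; 541 higher, 4.27%, and 411 lower, 3.25%) was called in the same direction against all 5, the 3 high and the 2 middle libraries, and is called here the shared set. It was defined after the values were seen, and the references share libraries. With the fibroblast level as a covariate 1 gene was called (0.0079%), Gsn, which was lower, and with the ribosomal level as a term 3 genes were called (0.0237%), Clec4d, Ccl9 and Man2a1, all lower. The second fit tells level from group only through 1 low IL-6Ra/IL-21R library.

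Fold changes followed the length of the transcript. Of the tested genes, 99.7% had an exonic length. The genes were split by it into 10 bins of equal size. In the bin of the shortest (median 1273 bases) the median log2 fold change against total T cells was -0.49, and in the bin of the longest (median 12492 bases) it was 0.49. Genes called higher had a median exonic length of 6809 bases, genes called lower 2916, and all tested genes 4463. Against the middle total T-cell libraries the bins ran from -0.44 to 0.49, while against the low T-bet- and IFN-gamma-deficient libraries they stayed between -0.01 and 0.04. Spearman's rho of fold change and length, across genes that are not independent, was 0.33 against total T cells and -0.037 against the T-bet- and IFN-gamma-deficient groups. The part of this trend in any one gene's change was not tested.

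**Figure D2:**
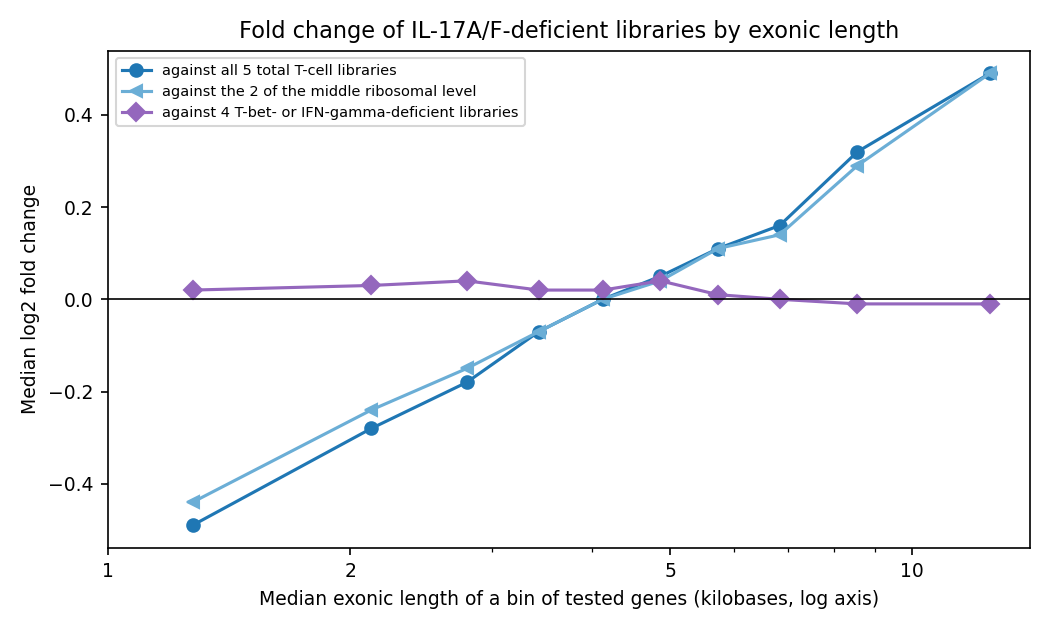
Median log2 fold change of IL-17A/F-deficient libraries (y) in 10 bins of the tested genes by exonic length (x, log axis), against 3 references. Against total T cells the line climbs from -0.49 to 0.49, and against the T-bet- and IFN-gamma-deficient libraries it is flat.

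Genes of the IL-17 receptor and its signalling chain did not move together. Of 20 tested, 5 were higher and 3 lower, with a median log2 fold change of 0.08 beside 0.02 for all tested genes. Against the high libraries 6 were higher and 3 lower (median 0.04), and against the middle ones 0 and 2 (median 0.21). Among the genes of the list called higher, 3 follow fibroblast RNA. This means a log2 CPM correlated at 0.7 or more with the fibroblast markers over the 20 libraries of the other groups. Library types are mixed in that measure. Il17ra (chr6:120463247-120487559, GRCm38), the shared receptor chain, was at 110.2 and 124.6 CPM with IL-17A/F-deficient T cells and at 138, 146.8, 157.5, 134.5 and 122.2 CPM with total T cells. The ranges overlapped, and the log2 fold change of -0.29 ± 0.21 (SE) did not pass (edgeR adjusted p = 0.349). Il17rc, its partner chain, was at 5.32 and 13.1 CPM against 1.89 to 4.65 CPM (1.51 ± 0.61, edgeR adjusted p = 0.0733), and is among the genes set apart as stromal below. Traf3ip2, which encodes Act1, was at 2.88 and 1.30 CPM, inside the range of 1.18 to 5.39 CPM with total T cells. Traf6 (chr2:101678429-101701669), the ubiquitin ligase that Act1 recruits, fell. It was at 24.7 and 23.9 CPM against 69.6, 44.0, 34.9, 41.3 and 54.3 CPM, with no overlap (-0.98 ± 0.20, edgeR adjusted p = 0.00175). Nfkbia (chr12:55489410-55492647), the NF-kB inhibitor that NF-kB itself induces, was at 895.7 and 742.0 CPM against 1625, 1980, 1743, 1605 and 1146 CPM (-1.01 ± 0.15, edgeR adjusted p = 0.000176). Both are in the shared set. Nfkbiz rose by 0.67 ± 0.22 (edgeR adjusted p = 0.0284), a call that was lost against the middle total T-cell libraries (0.44, edgeR adjusted p = 0.246), without total T-cell F1 or M1 (0.0651 and 0.0604) and without IL-17A/F-deficient F1 (0.428).

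Among 20 tested target genes of IL-17, 1 was higher and 3 were lower (median -0.58), with 4 and 4 against the high libraries (median -0.46) and 0 and 1 against the middle ones (median -0.59). The lower ones were Tnf, Ptgs2 and Nos2, which NF-kB also drives. Tnf, the inflammatory cytokine, was at 253.9 and 197.4 CPM against 290.8, 484.8, 647.4, 450.0 and 337.1 CPM, with no overlap (-1.01 ± 0.25, edgeR adjusted p = 0.00599), and is in the shared set. Ptgs2, the inducible prostaglandin synthase, fell by 1.24 ± 0.44 (edgeR adjusted p = 0.0392), but not against the middle libraries (-0.62, edgeR adjusted p = 0.399). Nos2, the inducible nitric oxide synthase, was at 302.1 and 141.2 CPM in total T-cell F1 and M1 but between 0.918 and 7.39 CPM in F2, F3 and F4, and at 0 and 1.69 CPM with IL-17A/F-deficient T cells. Steap4, a metalloreductase, rose by 2.12 ± 0.64 (edgeR adjusted p = 0.0173) and is one of the genes that follow fibroblast RNA. Leaving out single libraries ended each of these 4 calls. The edgeR adjusted p was 0.104 for Tnf without IL-17A/F-deficient F2, 0.119 and 0.0709 for Steap4 without F1 and F2, and above the threshold for Ptgs2 (0.0598 to 0.353) and Nos2 (0.0691 to 0.284) without either of them or without total T-cell F1 or M1. Cxcl1, a neutrophil chemokine, was at 113.3 and 74.6 CPM against 34.1 to 169.9 CPM, and its groups overlapped. Lcn2, an iron-binding protein of neutrophils and epithelia, was at 1.03 and 0.260 CPM against 5.39 to 24.7 CPM (-4.28 ± 1.65, edgeR adjusted p = 0.0601). The summed neutrophil markers were at 182 CPM in both IL-17A/F-deficient libraries and between 106 and 561 CPM with total T cells, with Ly6g and Retnlg at 0 in all 7. Of the 9 neutrophil markers tested 0 were higher and 2 lower (median -4.19). Of the 9, 5 lay below all total T-cell values, beside 41.1% of all tested genes without overlap in either direction. Against the middle libraries 0 were called (median -1.95). The median was 7.88 with the fibroblast level as a covariate and -0.06 with the ribosomal level as a term. The part of neutrophil RNA in the Lcn2 values was not tested.

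Members of the IFN-gamma response were lower than with total T cells, chiefly against the high libraries. Of 27 tested genes, 0 were higher and 7 lower by edgeR, with a median of -0.76 over all 5 libraries, -1.06 against the high and -0.07 against the middle ones, where edgeR called 0 in either direction (by unadjusted p under 0.05, 2 were higher and 3 lower). The median of the list was 0.01 with the fibroblast level as a covariate and 0.52 with the ribosomal level as a term. Nos2 of the list above and Ciita of the MHC class II list are also members. Gbp2 (chr3:142620602-142638008), a guanylate-binding protein of cell-autonomous defence, was at 211.4 and 312.7 CPM against 1667, 458.0, 276.0, 446.2 and 1259 CPM (-1.66 ± 0.55, edgeR adjusted p = 0.0295). Its near-identical neighbour Gbp2b can share reads with it. Against the middle libraries its log2 fold change was -0.47 (edgeR adjusted p = 0.517). Cxcl9 (chr5:92321347-92328079), a chemokine that draws Cxcr3-positive T cells, was at 81.2 and 344.6 CPM against 1316, 738.8, 121.8, 609.1 and 2205 CPM, and the groups overlapped (-2.27 ± 0.99, edgeR adjusted p = 0.0956). Socs1, the feedback inhibitor of the pathway, was at 9.89 and 24.8 CPM against 32.2 to 101.4 CPM (-1.84 ± 0.49, edgeR adjusted p = 0.00868). Acod1, which makes itaconate, was at 17.6 and 19.5 CPM against 74.2 to 588.1 CPM (-3.85 ± 1.12, edgeR adjusted p = 0.0145). The call of Gbp2 was lost without either IL-17A/F-deficient library and without total T-cell F1 or M1 (edgeR adjusted p = 0.0553 to 0.241), that of Acod1 without either IL-17A/F-deficient library (0.136 and 0.107) and that of Socs1 without F1 (0.178). Ifngr1, the receptor chain that binds the cytokine, was at 362.1 and 365.8 CPM, inside the range of 346.8 to 439.8 CPM.

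The sequences upstream of some of these genes show how far they share the letters that interferon-activated factors are known to bind. The 250 bases before the start site are given 5′ to 3′ from RefSeq (GRCm38.p6), for Fcgr4, the 1 gene called in the comparison with the T-bet- and IFN-gamma-deficient groups below, for Socs1 and Cxcl9 of the IFN-gamma list and for Tap1 of the MHC class I list. Capitals mark matches to the core of the interferon-stimulated response element, GAAANNGAAA, on either strand.
Fcgr4: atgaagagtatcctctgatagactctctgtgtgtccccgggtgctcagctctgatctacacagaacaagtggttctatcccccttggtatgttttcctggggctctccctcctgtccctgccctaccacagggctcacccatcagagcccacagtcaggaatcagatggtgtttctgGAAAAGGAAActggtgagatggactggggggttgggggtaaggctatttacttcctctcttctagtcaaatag
Socs1: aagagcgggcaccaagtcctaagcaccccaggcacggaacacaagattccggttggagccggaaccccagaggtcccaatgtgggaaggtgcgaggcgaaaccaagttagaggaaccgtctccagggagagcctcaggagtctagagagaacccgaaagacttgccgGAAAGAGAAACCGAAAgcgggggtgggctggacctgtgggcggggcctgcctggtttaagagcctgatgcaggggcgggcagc
Tap1: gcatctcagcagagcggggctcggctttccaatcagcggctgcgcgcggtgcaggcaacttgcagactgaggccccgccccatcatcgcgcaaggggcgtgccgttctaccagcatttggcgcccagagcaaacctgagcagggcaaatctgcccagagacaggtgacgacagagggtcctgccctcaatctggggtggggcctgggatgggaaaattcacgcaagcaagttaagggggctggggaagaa
Cxcl9: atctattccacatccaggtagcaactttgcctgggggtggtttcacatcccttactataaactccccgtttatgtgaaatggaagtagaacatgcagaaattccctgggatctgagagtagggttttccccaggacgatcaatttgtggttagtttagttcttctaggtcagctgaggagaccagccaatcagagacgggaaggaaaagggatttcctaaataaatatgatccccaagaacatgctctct
They lie at chr1:171018676-171018925 (plus strand), chr16:10785537-10785786 (minus strand), chr17:34187306-34187555 (plus strand) and chr5:92328080-92328329 (minus strand). Fcgr4 holds 1 match, Socs1 holds 2 that overlap, and Tap1 and Cxcl9 hold none. None of the 4 holds a gamma-activated site, TTCNNNGAA, on either strand. Of the 19 genes of the IFN-gamma list with an entry, 12 (63.2%) hold the response-element core and 9 (47.4%) a gamma-activated site, beside 2.98% and 7.02% of 32851 promoters. Of the 19 MHC class I genes with an entry, 3 (15.8%) hold the response-element core and 2 (10.5%) a gamma-activated site. A match is a description of these letters and not of binding.

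MHC class I genes showed the same order of references. Of 22 tested MHC class I and peptide-loading genes 0 were higher and 9 lower (median -0.42), with 11 lower against the high and 1 against the middle libraries. Tap1 (chr17:34187553-34197225), a chain of the peptide transporter, was at 279.2 and 356.8 CPM against 965.4, 685.6, 406.1, 536.5 and 978.0 CPM, with no overlap (-1.17 ± 0.29, edgeR adjusted p = 0.00543). Psmb10, an immunoproteasome subunit, was the 1 member in the shared set (-1.2 ± 0.27, edgeR adjusted p = 0.00275). The MHC class I median was -0.19 with the fibroblast level as a covariate and 0.01 with the ribosomal level as a term. Of 13 MHC class II genes 0 were higher and 4 lower (median -0.43), with 4 lower against the high (median -0.47) and 1 against the middle libraries (median -0.51). The class II median turned to 0.51 with the fibroblast level and to 0.84 with the ribosomal level. Cd74, the invariant chain, did not pass (-0.22 ± 0.25, edgeR adjusted p = 0.558), nor did Ciita, the regulator of the class (0.34 ± 0.34, edgeR adjusted p = 0.496). H2-DMb2, a peptide editor, was at 7.16 and 12.6 CPM against 34.6 to 40.4 CPM (-1.94 ± 0.51, edgeR adjusted p = 0.00759). Without IL-17A/F-deficient F1 the edgeR adjusted p was 0.101 for Tap1, 0.0762 for Psmb10 and 0.141 for H2-DMb2. Reads of the H2 genes can be split between near-identical copies.

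The 4 T-bet- and IFN-gamma-deficient libraries are of the same low level as the IL-17A/F-deficient ones, so they gave a comparison within 1 library type. In it 1 of 12661 genes was called by edgeR (0.0079%), and 497 had an unadjusted p under 0.05 (3.93%; 380 higher, 3.0%, and 117 lower, 0.924%). The DESeq2 Wald test called 4, Fcgr4, Gbp4, Klra2 and Rgs2, all higher. The called gene was Fcgr4 (chr1:171018920-171029761), an activating Fc receptor for IgG. It was at 258.9 and 397.5 CPM with IL-17A/F-deficient T cells, at 141.1 and 159.6 CPM with T-bet-deficient and at 78.4 and 91.0 CPM with IFN-gamma-deficient T cells, and the groups did not overlap (1.54 ± 0.24, edgeR adjusted p = 0.018). The call was lost without either T-bet-deficient library (edgeR adjusted p = 0.253 and 0.123), without IFN-gamma-deficient F1 (0.253) and without IL-17A/F-deficient F2 (1.0), with log2 fold changes between 1.19 and 1.57. Without IFN-gamma-deficient F2 101 genes were called, 99 of them higher. With total T cells Fcgr4 was at 561.2, 568.2, 346.4, 359.0 and 526.8 CPM, which overlaps the IL-17A/F-deficient values (-0.55 ± 0.25, edgeR adjusted p = 0.112), and without T cells it averaged 133.3 CPM.

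The genes that IFN-gamma induces stood on the higher side of this second comparison. Of the 27 IFN-gamma response genes 23 had a positive log2 fold change (median 0.83), and 13 of them an unadjusted p under 0.05. All 22 MHC class I genes were positive (median 0.60, 15 with an unadjusted p under 0.05), as were all 13 MHC class II genes (median 0.68, 9 with an unadjusted p under 0.05). The median over all tested genes was 0.02. Other lists leaned positive too, with 22 of 25 cell cycle (median 0.51), 21 of 24 type I interferon (0.22) and 18 of 22 constitutive proteasome genes (0.07). Border macrophage genes leaned the other way, with 3 of 27 positive (median -0.33). In none of these lists did a gene pass the adjustment over all genes by edgeR, and the DESeq2 Wald test called Gbp4 of the first. Cxcl9 was at 34.3 and 67.5 CPM with T-bet-deficient and at 2.48 and 22.7 CPM with IFN-gamma-deficient T cells, below both IL-17A/F-deficient values (3.05 ± 0.87, edgeR adjusted p = 0.823). Gbp4, another guanylate-binding protein, was at 30.4 and 45.7 CPM against 13.8, 9.62, 3.58 and 3.24 CPM (2.59 ± 0.56, edgeR adjusted p = 0.264). Rgs2, a regulator of G-protein signalling that is in none of these lists, was at 296.9 and 315.4 CPM against 176.1 to 208.6 CPM (0.71 ± 0.13, edgeR adjusted p = 0.124). Ciita was at 267.1 and 266.4 CPM against 183.8, 134.7, 118.7 and 108.2 CPM (0.99 ± 0.34, edgeR adjusted p = 1.0). For each of these 4 genes the IL-17A/F-deficient libraries were above all 4 others, a pattern of no overlap that 17.4% of all tested genes showed in either direction. Gbp4 and Rgs2 were picked from genes without overlap, so for them this was fixed by the choice. Fibroblast RNA also differed in this comparison, 6.66 and 7.17 against 7.22 to 7.44 log2 CPM, and its part was not tested beyond the fit with the fibroblast level, in which Fcgr4 was at 1.49 (edgeR adjusted p = 0.0401).

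**Figure D3:**
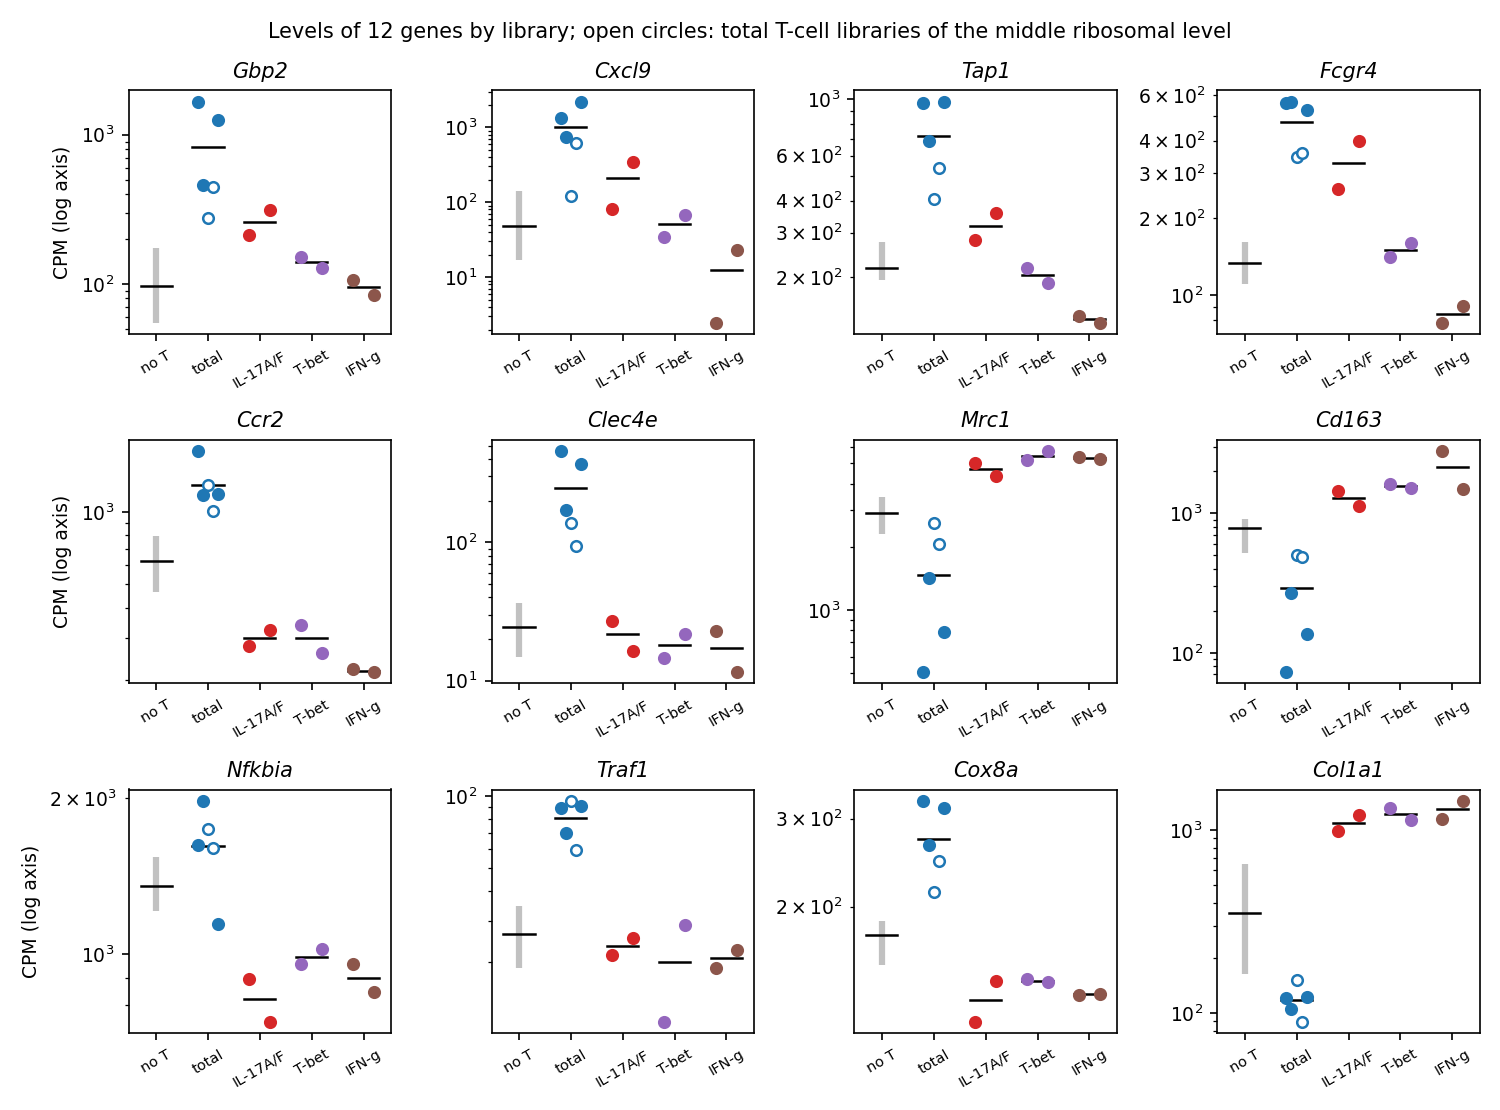
CPM of 12 genes (y, log axis, each with its own range) in every library of 4 T-cell groups, with group means as lines and, for 6 libraries without T cells, the range as a grey bar. In Gbp2, Cxcl9, Tap1 and Fcgr4 the IL-17A/F-deficient points lie below most total T-cell points and above the T-bet- and IFN-gamma-deficient ones, while in the other 8 genes they lie close to the T-bet- and IFN-gamma-deficient points.

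Genes typical of monocyte-derived cells were lower with IL-17A/F-deficient than with total T cells. Of 19 tested, 0 were higher and 11 lower, with a median of -2.15 over all 5 libraries, -2.59 against the high and -1.79 against the middle ones, and 4 are in the shared set. In bulk RNA, fewer cells of a type and less RNA per cell cannot be told apart. Ccr2 (chr9:124101950-124113557), the receptor that takes monocytes into tissue, was at 277.5 and 321.2 CPM against 1788, 1173, 1294, 1005 and 1182 CPM, with no overlap (-2.15 ± 0.33, edgeR adjusted p = 0.000183). It averaged 626.7 CPM without T cells, and lay between 215.7 and 339.7 CPM in the T-bet- and IFN-gamma-deficient groups. Clec4e (chr6:123281789-123289870), the receptor Mincle, was at 26.95 and 16.24 CPM against 458.0, 172.2, 137.2, 94.8 and 368.9 CPM (-3.37 ± 0.65, edgeR adjusted p = 0.00109). Msrb1, a methionine sulfoxide reductase, fell by 2.15 ± 0.42 (edgeR adjusted p = 0.00111). These 3 kept their call against the middle libraries and without each of the 7 libraries in turn. The median of the list was -2.55 with the fibroblast level as a covariate and -0.62 with the ribosomal level as a term. In these fits, in that order, Ccr2 was at -1.04 and -0.52, Clec4e at -4.43 and -3.84 and Msrb1 at -1.86 and -1.72. None of them was called by edgeR in either fit. Ly6c2, the surface marker of classical monocytes, was at 12.6 and 1.82 CPM against 853.3, 205.4, 71.3, 141.0 and 575.9 CPM (-5.61 ± 1.63, edgeR adjusted p = 0.0146), and its reads can be shared with near-identical Ly6 genes. Without either IL-17A/F-deficient library its edgeR adjusted p was 0.0725 and 0.142. Fn1, fibronectin, overlapped, and so did Itgal, an integrin chain, whose call (-1.51 ± 0.46, edgeR adjusted p = 0.0189) was lost against the middle libraries and without IL-17A/F-deficient F1 (edgeR adjusted p = 0.253). Against the T-bet- and IFN-gamma-deficient libraries the list had a median of 0.79, with 17 of 19 log2 fold changes positive, 4 at an unadjusted p under 0.05 and 0 called by edgeR.

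Border macrophage genes stood on the other side. Of 27 tested, 16 were higher and 0 lower (median 1.22), 24 were higher against the high libraries (median 2.08) and 4 against the middle ones (median 0.67). Mrc1 (chr2:14229392-14332057), the mannose receptor, was at 5035 and 4353 CPM against 505.7, 1414, 2597, 2063 and 787.6 CPM, with no overlap (1.66 ± 0.34, edgeR adjusted p = 0.00162). Cd163 (chr6:124304656-124330527), the haemoglobin scavenger receptor, was at 1436 and 1129 CPM against 72.8, 270.6, 499.4, 485.0 and 135.5 CPM (2.14 ± 0.46, edgeR adjusted p = 0.00238). Gas6, a bridging ligand for the uptake of dead cells, was at 1280 and 863.8 CPM against 148.1 to 565.4 CPM (1.63 ± 0.33, edgeR adjusted p = 0.00148). All of them are in the shared set, but without IL-17A/F-deficient F1 Gas6 missed the threshold (edgeR adjusted p = 0.0562). In both genes named first the middle total T-cell libraries lay between the high ones and the IL-17A/F-deficient ones. Mrc1 and Cd163 also followed fibroblast RNA over the 20 other libraries, with library types mixed (r = 0.79 and 0.77). Of the 27 genes 3 did so in all. Among libraries of like group and type the r of Mrc1 and Cd163 was -0.12 and -0.31. With the fibroblast level as a covariate Mrc1 was at 1.18 and Cd163 at 1.2 (edgeR adjusted p = 0.535 and 0.643), and the list median was 1.2. With the ribosomal level as a term they were at 0.85 and 0.6 (edgeR adjusted p = 0.807 and 0.969), and the list median was 0.76. The part of fibroblast RNA in their change was not tested beyond these fits. Cbr2 rose by 1.14 ± 0.36 (edgeR adjusted p = 0.0218) over all 5 libraries, with 0.42 against the middle ones (edgeR adjusted p = 0.304) and 0.72 without IL-17A/F-deficient F1 (edgeR adjusted p = 0.356). Lyve1, Folr2 and Pf4 did not pass (1.15, 0.77 and 0.83, edgeR adjusted p = 0.172, 0.196 and 0.114). Against the T-bet- and IFN-gamma-deficient libraries the list had a median of -0.33 with 0 genes called by edgeR and 1 at an unadjusted p under 0.05, and Mrc1 was at -0.19 ± 0.38.

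Of 14 genes for the uptake of dead cells 5 were higher and 0 lower (median 0.58), with 8 higher against the high (median 0.96) and 3 against the middle libraries (median 0.36). With the fibroblast level as a covariate the list median was 0.57, and the part of fibroblast RNA was not tested beyond that fit. In this list 4 members follow fibroblast RNA over the 20 other libraries, among them 2 of the 5 higher ones. Stab1, a scavenger receptor for phosphatidylserine, rose by 1.69 ± 0.37 (edgeR adjusted p = 0.0024) and is one of these 2 (r = 0.78). Its r among libraries of like group and type was -0.03. Of 11 microglia genes 4 were higher and 0 lower (median 0.80), with 6 higher against the high (median 1.18) and 2 against the middle libraries (median 0.58). Of the 4 higher ones 1, Sparc, is set apart as stromal, and Siglech and Fcrls are also in the border macrophage list. Among the 4 were Siglech, a sialic acid receptor (2.18 ± 0.44, edgeR adjusted p = 0.00146; 1.64 and 0.0622 against the middle libraries), and Olfml3 (1.2 ± 0.20, edgeR adjusted p = 0.000323). Tgfbr2, the TGF-beta receptor that resident macrophages depend on, was at 973.8 and 1042 CPM against 281.6, 547.3, 638.5, 603.4 and 466.2 CPM, with no overlap (0.99 ± 0.20, edgeR adjusted p = 0.00157). Tgif1, a repressor of that pathway, was at 237.1 and 239.7 CPM against 443.5 to 501.5 CPM (-1.01 ± 0.21, edgeR adjusted p = 0.00167). Of 18 tested genes of the TGF-beta pathway and its targets 5 were higher and 1, Tgif1, was lower (median 0.27). Of the 5 higher ones 2 follow fibroblast RNA. Of 17 lipid-handling genes 2 were higher and 4 lower (median -0.45). Abca1, which exports cholesterol, rose by 1.48 ± 0.22 (edgeR adjusted p = 0.00016) and follows fibroblast RNA (r = 0.72, but -0.52 among libraries of like group and type). Apoe, a lipid carrier, rose by 0.83 ± 0.22 (edgeR adjusted p = 0.00928). Npc2, which takes cholesterol out of lysosomes, was at 966.4 and 1123 CPM against 1542 to 1809 CPM (-0.65 ± 0.14, edgeR adjusted p = 0.00223) and is in the shared set. Without IL-17A/F-deficient F1 the edgeR adjusted p was 0.0682 for Stab1, 0.0909 for Apoe and 0.0645 for Npc2, and without F2 it was 0.0631 for Apoe.

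**Figure D4:**
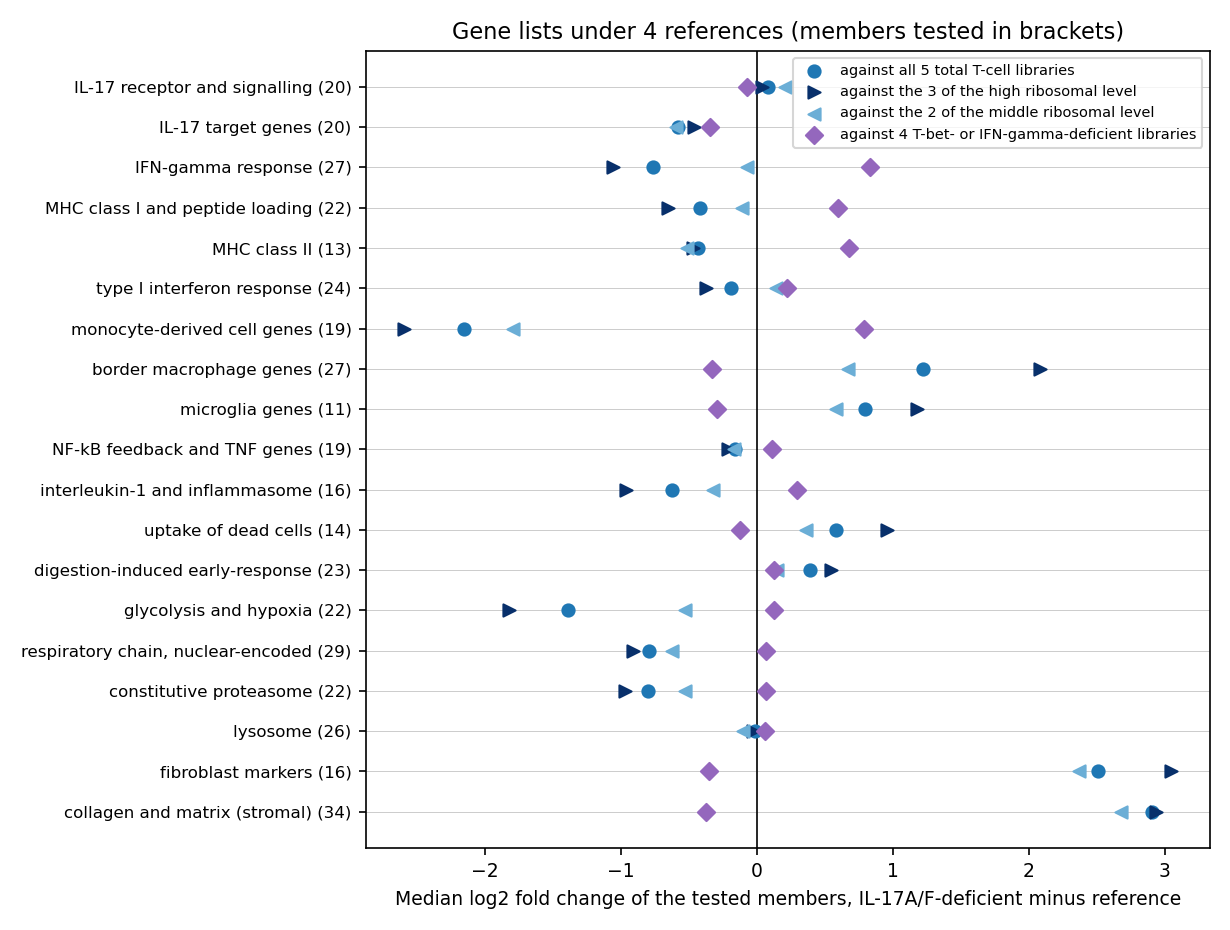
Median log2 fold change (x) of the tested members of 19 gene lists (y) in IL-17A/F-deficient libraries, against 4 references. Monocyte-derived genes lie left and border macrophage genes right of 0 against all 3 total T-cell references, while the IFN-gamma and MHC lists lie left of 0 against total T cells and right of it against the T-bet- and IFN-gamma-deficient libraries.

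Ccl17, Ccl22 and Ccr7 were lower with IL-17A/F-deficient T cells than in each total T-cell library. The rule that named them asks for ranges without overlap, so this was fixed by the choice. Over the chemokine list 2 of 23 genes were lower and 2 higher (median 0.01), and of 12 dendritic cell markers 3 were lower and 1 higher. Ccl17, a ligand of Ccr4, had 0 counts in both IL-17A/F-deficient libraries and was at 14.1, 8.13, 16.1, 5.47 and 1.08 CPM with total T cells, at least 58.0-fold lower against 3 counts over the group. Ccl22, the other Ccr4 ligand, was at 2.07 and 2.99 CPM against 28.0 to 43.3 CPM (-4.02 ± 1.25, edgeR adjusted p = 0.021). Ccr7, which guides dendritic cells to lymph nodes, was at 0.295 and 0.260 CPM against 31.1, 16.6, 25.5, 32.4 and 45.9 CPM (-6.93 ± 2.04, edgeR adjusted p = 0.0154). The calls of all 3 were lost without either IL-17A/F-deficient library (edgeR adjusted p = 0.092 to 0.179). All 3 were low in each T-bet- and IFN-gamma-deficient library too, where Ccr7 reached at most 5.01 CPM, Ccl22 4.40 CPM and Ccl17 2.57 CPM. The dendritic cell markers, which include Ccr7 itself, summed to 202 to 236 CPM against 214 to 431 CPM, and their part in these 3 genes was not tested. Traf1 (chr2:34941750-34961772), an NF-kB-induced adaptor, was at 21.4 and 25.5 CPM against 89.7, 69.9, 96.0, 59.6 and 90.8 CPM (-1.83 ± 0.37, edgeR adjusted p = 0.00135). Over its list, NF-kB feedback and TNF genes, 2 of 19 were higher and 5 lower, with a median of only -0.16. Nfkbia and Tnf are also members.

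In the interleukin-1 and inflammasome list, 5 of 16 genes were lower and 1 was higher (median -0.62). Casp4, the caspase that senses cytosolic lipopolysaccharide, was at 35.6 and 32.3 CPM against 73.2 to 108.6 CPM (-1.44 ± 0.26, edgeR adjusted p = 0.000641). Pycard, the adaptor ASC, was at 49.1 and 49.4 CPM against 80.8 to 153.2 CPM (-1.23 ± 0.24, edgeR adjusted p = 0.00102). Of 15 enzymes of prostaglandin and leukotriene synthesis 5 were higher and 3 lower (median 0.82). Against the high libraries 6 were higher and 3 lower (median 0.57), and against the middle ones 1 and 1 (median 0.1). Ptgis, prostacyclin synthase, rose by 1.59 ± 0.44 (edgeR adjusted p = 0.0107) and follows fibroblast RNA (r = 0.82, but 0.16 among libraries of like group and type). Hpgds, a prostaglandin D synthase, was at 142.3 and 114.7 CPM against 19.7 to 80.2 CPM (1.22 ± 0.34, edgeR adjusted p = 0.0107), a call that was lost against the middle libraries (0.84, edgeR adjusted p = 0.0794). Without IL-17A/F-deficient F1 the edgeR adjusted p was 0.138 for Hpgds and 0.0681 for Ptgis, and without F2 it was 0.0781 for Ptgis. Alox5ap, the partner of 5-lipoxygenase in leukotriene synthesis, fell by 0.84 ± 0.14 (edgeR adjusted p = 0.000363), and Ltb4r1, the leukotriene B4 receptor, by 4.24 ± 0.96 (edgeR adjusted p = 0.0031). Casp4, Pycard, Alox5ap and Ltb4r1 are in the shared set, and without IL-17A/F-deficient F1 Ltb4r1 missed the threshold (edgeR adjusted p = 0.0742). Among immediate early genes that digestion of a tissue can induce, 5 of 23 were higher and 0 lower (median 0.39). Jun was at 2325 and 1628 CPM against 565.5 to 964.3 CPM (1.30 ± 0.28, edgeR adjusted p = 0.0022), and between 1651 and 2391 CPM in the T-bet- and IFN-gamma-deficient groups. Without IL-17A/F-deficient F1 its edgeR adjusted p was 0.0824. A pair of genes of alternative activation went with single total T-cell libraries. Arg1, arginase, had 0 counts with IL-17A/F-deficient T cells and was at 92.6 and 72.3 CPM in total T-cell F1 and M1 but at 0 in F3 (at least 285-fold lower for the pooled group, edgeR adjusted p = 0.0625). Chil3, a chitinase-like protein, was at 2447 CPM in F1 and between 71.0 and 491.5 CPM in the other 4, against 8.34 and 22.3 CPM (edgeR adjusted p = 0.0532).

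Most genes of the respiratory chain, the constitutive proteasome and glycolysis were lower. Of 29 nuclear genes of the respiratory chain (median exonic length 1587 bases) 0 were higher and 26 lower, with a median of -0.79 against all 5 and -0.62 against the middle libraries, and 13 are in the shared set. Cox8a, a subunit of cytochrome c oxidase, was at 117.8 and 142.2 CPM against 326.0, 266.1, 214.1, 247.1 and 315.2 CPM (-1.07 ± 0.18, edgeR adjusted p = 0.000379). Of 22 constitutive proteasome subunits (median exonic length 2713 bases) 18 were lower (median -0.80). Of 22 glycolysis and hypoxia genes (median exonic length 4643 bases, with 4463 for all tested genes) 15 were lower (median -1.39), 2 of them in the shared set. Against the high libraries 17 were lower (median -1.82), and against the middle ones 2 (median -0.53). Slc16a3 (chr11:120948480-120960868), which exports lactate, was at 12.6 and 15.9 CPM against 462.8, 103.2, 54.5, 65.2 and 280.3 CPM (-3.66 ± 0.76, edgeR adjusted p = 0.00166). Ldha, lactate dehydrogenase A, was at 221.3 and 220.2 CPM against 363.8 to 1014 CPM (-1.39 ± 0.30, edgeR adjusted p = 0.00215). All 7 tested mitochondrially encoded genes were lower (median -1.41), as were 77 of 97 ribosomal protein genes (median -1.80). In the T-bet- and IFN-gamma-deficient groups, of the same library type, the medians of these nuclear lists differed from the IL-17A/F-deficient ones by 0.07 (respiratory chain), 0.07 (proteasome) and 0.13 (glycolysis), with 0 genes called by edgeR and 0 at an unadjusted p under 0.05. The 7 mitochondrially encoded genes had a median of -0.93 in that comparison, with all 7 negative at an unadjusted p under 0.05 and 0 called by edgeR. Fau and Actg1, which have many processed copies, were at 484.2 to 977.6 CPM in the high total T-cell libraries and at 9.26 to 16.7 CPM in the middle ones, beside 6.50 to 10.6 CPM with IL-17A/F-deficient T cells.

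Outside these lists, a few genes of the shared set that do not follow fibroblast RNA by the measure above were chosen for their low p, after their values were seen. Specc1l (chr10:75212073-75312743), a cytoskeletal linker, was at 166.3 and 159.1 CPM against 79.3, 87.5, 74.3, 94.0 and 78.4 CPM (0.97 ± 0.12, edgeR adjusted p = 4.89e-05). Mdm2, the ubiquitin ligase of p53, was at 73.5 and 88.1 CPM against 182.4 to 244.9 CPM (-1.34 ± 0.19, edgeR adjusted p = 0.000113). Gpx1, glutathione peroxidase 1, was at 484.8 and 459.4 CPM against 932.7 to 1155 CPM (-1.2 ± 0.18, edgeR adjusted p = 0.000176). In all 3 the T-bet- and IFN-gamma-deficient libraries lay near the IL-17A/F-deficient ones (log2 fold changes of 0.11, 0.05 and 0.18, none past the test). No gene was called in both comparisons with the same sign.

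Stromal genes were far higher with IL-17A/F-deficient than with total T cells. By the first rule, which takes the marker lists of stromal cells and genes that follow the fibroblast markers among libraries of like group and type, 197 genes were set apart, of which 94 were called higher and 10 lower. By the wider correlation over the 20 other libraries, with library types mixed, 1161 were, of which 785 were higher and 10 lower. Outside the wider set 2375 genes were called, 921 higher and 1454 lower. Collagen and matrix genes were higher in 27 of 34 cases and lower in 0 (median 2.91), and the fibroblast markers in 15 of 16. Col1a1, a chain of type I collagen, was at 982.6 and 1197 CPM against 120.7, 104.8, 152.3, 89.8 and 121.6 CPM (3.19 ± 0.57, edgeR adjusted p = 0.000583), and at 1138 to 1444 CPM in the T-bet- and IFN-gamma-deficient groups. The 10 highest named genes that the first rule had left in, among them Lama2, a laminin chain (5.02 ± 0.98, edgeR adjusted p = 0.00113), Fat4, a protocadherin (4.93 ± 0.88, edgeR adjusted p = 0.000565), and Slc26a7, an anion transporter (4.54 ± 0.57, edgeR adjusted p = 4.89e-05), all belong to the wider set. Igfbp5, a stromal binding protein of insulin-like growth factors, was at 1270 and 2626 CPM against 110.1 to 212.6 CPM (3.46 ± 0.67, edgeR adjusted p = 0.00111). With the fibroblast level in the fit, Lama2 was no longer called, and the medians of the fibroblast and collagen lists were -0.09 and -0.18.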

How the data were processed

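RNA-seq libraries of sorted dural macrophages were single-end and unstranded (75-nt reads, 1 µg of RNA), per the labels' protocols. STAR 2.4.0j, featureCounts, DESeq2 1.20.0 and GRCm38 were used per the submitters' processing notes, and the authors deposited 1 table of 27 columns. Its name calls the counts normalized, but every count from 1 to 20 occurs in each column and totals differ, so the deposited values were taken as raw read counts. Of 41388 identifiers 40340 have a symbol in GENCODE M21 (GRCm38), which also gave coordinates and exonic lengths. Library totals ran from 7774492 to 13503664 counts with IL-17A/F-deficient and from 10300692 to 19966749 with total T cells. Columns show group and sex but no replicate number of the titles, so libraries were numbered in column order. Libraries of a group, taken in pairs, differed beyond sampling noise (chi-square per degree of freedom 18.28 and 18.84 to 137.9).

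The 12661 genes whose mean normalized count was 10 or more were fitted with edgeR 4.0.16 (R 4.3.3; TMM, quasi-likelihood, group plus sex, all 27 libraries), which was tested on simulated data. DESeq2 1.42.0 was an alternative. Errors are SE. CPM use TMM-scaled totals, except the ribosomal protein sums. Folds against a group at 0 use 3 counts over the group. The members, lists and tests were chosen with earlier results of these data known.

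Named genes are the 10 highest and lowest called ones with at least 20 CPM and up to 3 called members of each list, all outside the genes set apart as stromal and with CPM ranges that do not overlap, and a list of genes by name, which are given whether or not they were called, overlap or are stromal. Those named for the second comparison, other than Fcgr4, and Gsn, Clec4d, Ccl9, Man2a1, Specc1l, Mdm2 and Gpx1 were chosen after their values were seen. Alternatives changed the scaling, the filter, the test, the libraries, the sex term and the reference, or added the fibroblast or the ribosomal level.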

Additional observations from a re-analysis of the deposited data

Results flagged for a closer look

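Of 76 named genes checked, 5 had 1 of the 5 total T-cell libraries far from the other 4 in CPM, a share near the 5% that chance alone gives. Library F1 was the highest for Chil3 (2447, others 71.01 to 491.5), Fn1 (845.8, others 115.6 to 306.4) and Ltb4r1 (99.24, others 17.51 to 31.19), and the lowest for Abca1 (232.9, others 349.1 to 395.6). Library M1 was the highest for Lama2 (3.555, others 0 to 0.9262). In each of these genes except Fn1 both IL-17A/F-deficient libraries lay outside the range of all 5. For Lama2, Ltb4r1 and Abca1 this was fixed by the rule that named them, which asks for ranges without overlap.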

How the results depend on the processing

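No paired analysis was possible because the columns do not carry the replicate numbers that the titles give. The 3170 calls against total T cells became 1171 with only the 2 groups in the fit, 1060 against the middle total T-cell libraries, 1 with the fibroblast level as a covariate and 3 with the ribosomal level as a term (added after seeing the data), and 993 to 3422 without 1 library. They came within 1.5 times of the count under the other scalings, filters and tests, without the sex term, with females only, and without the wider stromal set (2375, also added). The 1 call against the T-bet- and IFN-gamma-deficient groups became 4 with the DESeq2 Wald test, 171 with no filter, 5 with only these groups in the fit (Fcgr4, Gbp4, Mmp9, Prtn3 and Rgs1), and 0 to 101 without 1 library.

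The direction of some named genes turned. With the fibroblast level as a covariate the log2 fold changes against total T cells were 0.02 for Il17ra, -1.17 for Il17rc, -0.85 for Cxcl1, 0.51 for Cd74, -0.17 for Lyve1, -0.25 for Igfbp5, -0.13 for Col1a1, 0.08 for Rgs2 and 0.43 for Gbp4. With the ribosomal level as a term they were 0.05 for Ly6c2, 0.23 for Actg1, -0.23 for Steap4, 0.36 for H2-DMb2, 0.04 for Il17ra, -0.38 for Il17rc, 0.51 for Traf3ip2, -1.05 for Cxcl1, 0.76 for Nos2, 0.83 for Cd74, -1.0 for Lyve1, -0.02 for Igfbp5, 0.05 for Fcgr4, 0.21 for Rgs2, 0.56 for Klra2 and 1.15 for Gbp4. Against the middle libraries they were 0.63 for Traf3ip2, -0.44 for Cxcl1, 0.0 for Fn1, -0.05 for Folr2, -0.14 for Rgs1 and 0.06 for Gbp4. Rgs1 ran from -0.12 to 0.15 without 1 library, Cxcl1 was at -0.15 without IL-17A/F-deficient F1 and at -0.01 without total T-cell F1, and Socs1, against the T-bet- and IFN-gamma-deficient groups, lay between -0.41 (without IL-17A/F-deficient F2) and 0.9 (without F1). The cause was not tested. Of 90 fold changes of named genes in both comparisons, 53 kept their direction and lost their call with the fibroblast level and 25 with only the groups compared, and none changed its call with the DESeq2 size factors or without the sex term. With 2 libraries in 1 group, and with library type and genotype joined, no value against total T cells separates the T cells' genotype from the library type.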
